A study of Mus musculus with 4 samples.

Results

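Splenic adherent cells that had piled up into compact colonies (SACCs) and been moved to a serum-free medium for mouse embryonic stem cells (ES medium) were compared with adherent spleen cells that had stayed as a monolayer in plain medium. The comparison, called the ES colony pair here, used all 45037 probe sets of the 2 arrays that the labels tie to each other, out of 4 arrays in all, with 1 array on each side. The 4 arrays were SACCs in ES medium, the monolayer labelled as their control, SACCs in plain medium, and the monolayer labelled as the control of those. The last 2 are called the plain colony pair. All cells came from spleens of C57BL/6J mice, cut into 6 pieces each and cultured in RPMI medium with 5% fetal bovine serum. For the ES medium SACCs the plain medium was exchanged once colonies began to form, about 7 to 14 days into culture, while the other 3 cultures are labelled as plain medium. No age, sex or number of animals was given, nor whether colonies and monolayer came from the same spleen.

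In the ES colony pair the cell state and the medium, serum included, differed together, so their parts in a difference cannot be told apart. With 1 array a side no difference could be tested, and every value below describes these arrays. Values are log2 expression levels. A ratio is the log2 level in SACCs minus that in the monolayer of the same pair, and SACCs at 2-fold the monolayer's level have a ratio of 1. Array medians were 4.52 in the ES medium SACCs and 4.59 in their monolayer, and 4.35 and 4.34 in SACCs and monolayer of the plain colony pair. The 2 pairs appear to have been scaled separately, so levels on arrays of different pairs are read against the array medians. No detection calls were used, so a fold against a level below its array's median is uncertain. RNA was taken from whole cultures, so fewer cells of a type and less RNA per cell cannot be told apart.

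The adherent fraction of a spleen culture holds macrophages and stromal cells. Stromal cells of the spleen descend from a mesenchyme that expresses a few homeobox genes needed for the organ to form, and they make matrix, chemokines and cytokines that place and feed leukocytes. ES media are made to keep stem cells dividing without serum.

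Over all 45037 probe sets, 2240 (4.97%) were at least 2-fold higher in the ES medium SACCs than in their monolayer and 1614 (3.58%) at least 2-fold lower. Of 19747 genes, each read from whichever of its probe sets was brightest on average across all 4 arrays, 1286 (6.51%) were at least 2-fold higher in the ES medium SACCs and 807 (4.09%) at least 2-fold lower. In the plain colony pair 1187 (6.01%) were at least 2-fold higher and 1025 (5.19%) at least 2-fold lower. Ratios were above 0 for 47.5% of genes and below 0 for 50.5% in the ES colony pair. The median ratio over all genes was -0.01 in the ES colony pair and -0.02 in the plain colony pair. Of the 1286 genes, 668 (51.9%) were also at least 2-fold higher in the plain colony pair, 459 (35.7%) were higher there by less, 124 (9.64%) were lower by less than 2-fold and 30 (2.33%) were at least 2-fold lower. Of the 807 genes, 529 (65.6%) were at least 2-fold lower in the plain colony pair too, 37 (4.58%) were higher by less than 2-fold and 11 (1.36%) were at least 2-fold higher. At 4-fold, 277 genes were higher in the ES colony pair, of which 75 were less than 2-fold higher in the plain colony pair, and 199 were lower, of which 28 were less than 2-fold lower there. The 2 pairs share no array, but no replicate exists to test a difference between them. Low levels were common among these genes: 326 of the 1286 had a monolayer value below its array's median.

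**Figure D1:**
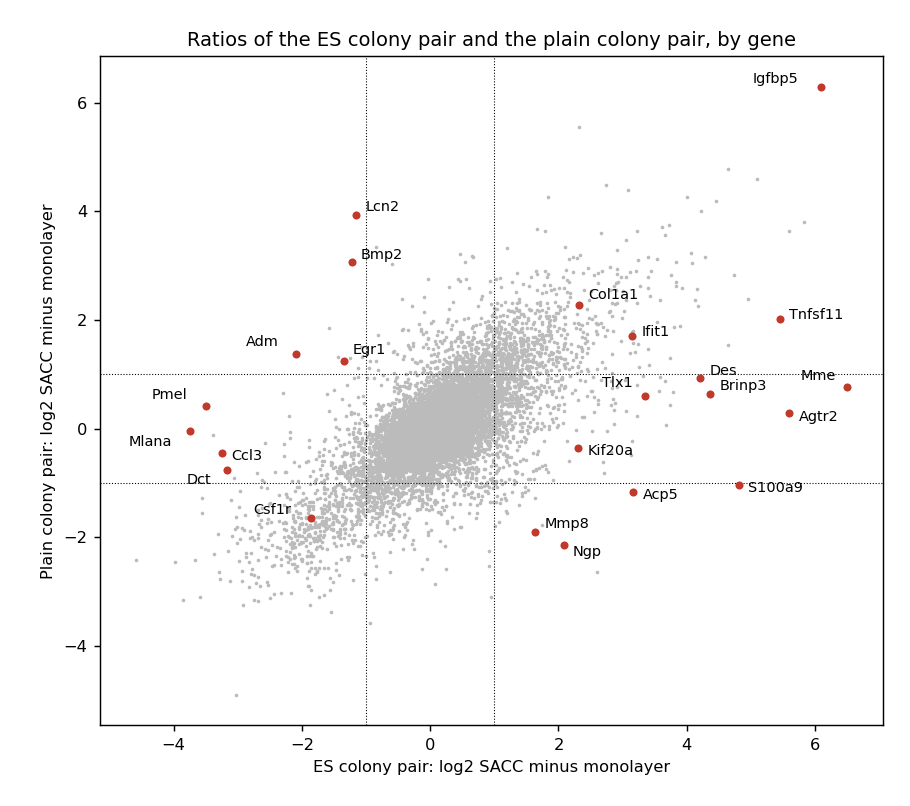
Each point is 1 of 12016 genes above the array median on at least 1 array of the ES colony pair, without predicted genes and similar entries. The horizontal axis is the log2 ratio of SACCs over monolayer in the ES colony pair and the vertical axis the same ratio in the plain colony pair; dotted lines mark 2-fold. Igfbp5, at 6.09 and 6.29 (-0.40 in the ES colony pair for its other probe set), lies near the diagonal, while Mme and Agtr2 lie far right at plain colony pair ratios of 0.77 and 0.28, Pmel and Mlana far left near 0, and Lcn2 and S100a9 in opposite corners.

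The cell types of the labels were checked on marker lists. All 15 fibroblast genes were higher in the ES medium SACCs, 10 of them at least 2-fold, and 17 of 18 macrophage genes were lower, 16 of them at least 2-fold. The leukocyte antigen Ptprc (CD45) was at 9.20 in these SACCs and at 11.28 in the monolayer, and Csf1r, the macrophage growth factor receptor, at 11.8 and 13.66, so both transcripts were still far above the array median in the colonies. The plain colony pair had like values, with 14 of 15 fibroblast genes at least 2-fold higher and 16 of 18 macrophage genes at least 2-fold lower, and these shared differences are not followed further.

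A further difference separated the pairs and not the arrays within them. Xist, the RNA that silences an X chromosome, was at 10.53 in the ES medium SACCs and 11.47 in their monolayer, against 4.10 and 4.49 in SACCs and monolayer of the plain colony pair. The Y-linked helicase gene Ddx3y was at 2.08 and 2.26 in the ES colony pair, and at 9.37 and 9.08 in the plain colony pair. Eif2s3y and Kdm5d, also Y-linked, were below the medians of both arrays of the ES colony pair and above those of the plain colony pair. These genes were chosen after their values were seen. The pairs thus differ in sex-linked expression together with the medium of the SACCs, and the 2 cannot be told apart in a difference between pairs. Within the ES colony pair both arrays were alike in these genes.

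The highest ratio of the ES colony pair belonged to Mme, which encodes neprilysin (CD10), a membrane metalloprotease that cleaves small signalling peptides. Mme was at 9.26 in the ES medium SACCs and at 2.76 in their monolayer, a ratio of 6.50 or 90.5-fold. SACCs and monolayer of the plain colony pair lay below the array median for this gene, at 3.00 and 2.23. It was thus high on 1 of the 4 arrays. With low values raised to the array median the ES ratio was 4.67, and the other probe set of the gene had a ratio of 1.89.

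Agtr2, the type 2 receptor for angiotensin II, stood at 8.25 in the ES medium SACCs and 2.65 in their monolayer, a ratio of 5.60. The plain colony pair had 6.07 in SACCs and 5.79 in the monolayer, so over the array medians the ES medium SACCs were the high array and their monolayer the low one. Agtr1a, the type 1 receptor, was at 7.41 in the ES medium SACCs and 6.14 in their monolayer, a ratio of 1.27, and had a ratio of -0.01 in the plain colony pair. Enpep, the aminopeptidase that trims angiotensin II, was high in SACCs of both pairs, with ratios of 4.45 and 4.19. Of 11 genes of the angiotensin system and of ectopeptidases measured, 4 were at least 2-fold higher in the ES colony pair and 1, Anpep (-1.77), at least 2-fold lower, with a list median of 0.03. Ace, the angiotensin-converting enzyme, had a ratio of -0.46.

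Genes of other secreted and membrane proteins followed. Nts, which encodes the peptide neurotensin, was at 9.02 in the ES medium SACCs and 3.20 in their monolayer, and its ratio of 5.82 compares with 3.81 in the plain colony pair. Sema3g, a secreted semaphorin, had ratios of 4.96 and 2.38 in the ES and the plain colony pair, and Cthrc1, a secreted collagen repeat protein, 4.65 and 1.54. Both were higher in SACCs in each pair, with the larger ratio in the ES colony pair. Brinp3 was at 6.98 in the ES medium SACCs and 2.61 in their monolayer, and below the array median in SACCs and monolayer of the plain colony pair at 4.23 and 3.59. The same held for Esm1, the proteoglycan endocan, at 6.76 and 3.02 in the ES colony pair and 3.82 and 3.38 in the plain colony pair, and for the inward rectifier potassium channel Kcnj15, at 6.97 and 3.18 and at 3.44 and 2.76. The 3 probe sets of Kcnj15 ranged between -0.26 and 3.79 in the ES colony pair. The adhesion protein Chl1 had ratios of 3.68 in the ES colony pair and 0.06 in the plain colony pair, but its 4 probe sets ranged between -0.73 and 3.68 in the ES colony pair. The adrenergic receptor Adra2a and the death receptor Tnfrsf21 were higher in the ES medium SACCs (2.71 and 1.75) and lower in SACCs of the plain colony pair (-0.81 and -1.77). The 3 probe sets of Adra2a ranged between 0.35 and 2.71 in the ES colony pair.

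**Figure D2:**
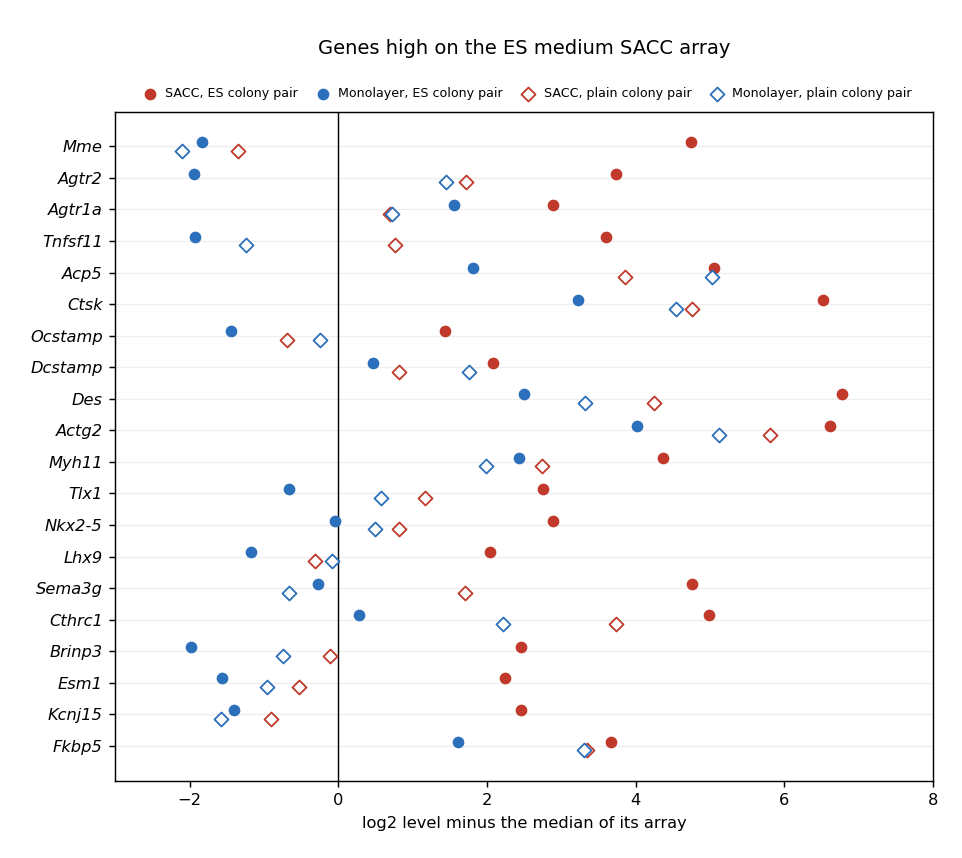
Levels of 20 genes on the 4 arrays, as log2 distance from the median of each array (vertical line at 0). Filled circles are the ES colony pair and open diamonds the plain colony pair, with SACCs in red and monolayers in blue; the ES medium SACC value of Mme lies 4.74 above its median while the other 3 arrays lie below theirs.

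Tlx1, Nkx2-5, Wt1 and Tcf21, transcription factors of the spleen mesenchyme, were each at least 2-fold higher in the ES medium SACCs than in their monolayer. Tlx1, a homeobox gene without which no spleen forms, was at 7.27 in the SACCs and 3.92 in the monolayer, a ratio of 3.35, while SACCs and monolayer of the plain colony pair were at 5.51 and 4.91. Nkx2-5, another homeobox gene of spleen and heart development, was at 7.4 and 4.54 in the ES colony pair and at 5.17 and 4.83 in the plain colony pair. Their plain colony pair ratios were 0.60 and 0.34, so neither reached 2-fold there. Wt1 and Tcf21, which also act in the spleen primordium, were at least 2-fold higher in SACCs of both pairs, with ratios of 3.84 and 2.14 in the ES colony pair and 2.63 and 1.75 in the plain colony pair. The LIM homeobox gene Lhx9 had a ratio of 3.14 in its highest probe set, from 6.56 in the ES medium SACCs and 3.42 in the monolayer, but its 4 probe sets began at -0.12. Of 13 measured genes of lymphoid stromal cells, a list that holds Tlx1, Nkx2-5, Wt1 and Tcf21 but not Lhx9, 6 were at least 2-fold higher in the ES colony pair and none at least 2-fold lower, with a median of 0.73. In the plain colony pair 4 were higher and the median was 0.46. The other 2 of the 6, Tnfsf11 among them, are not transcription factors.

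Genes of the mesothelium, the cell sheet that covers the spleen, were mixed. Bnc1, a zinc finger factor, was at 6.96 in the ES medium SACCs and 3.64 in the monolayer (ratio 3.32), and Upk3b, a mesothelial surface protein, at 7.11 and 4.17 (ratio 2.94). Their plain colony pair ratios were 0.97 and 0.86. Msln, the defining surface protein mesothelin, was below the array median on all 4 arrays. So were 5 of the 11 genes of this list, Msln included, and 6597 of all 19747 genes. The list had 4 members at least 2-fold higher in the ES colony pair and a median of 0.75, against 2 members and 0.27 in the plain colony pair.

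Tnfsf11 encodes RANKL, the cytokine by which stromal cells drive precursors of the macrophage lineage to become osteoclasts. It was at 8.12 in the ES medium SACCs and 2.66 in their monolayer, a ratio of 5.46, and at 5.11 and 3.09 in SACCs and monolayer of the plain colony pair, a ratio of 2.02. The other probe set of the gene had an ES colony pair ratio of 0.24. With low values raised to the array median, the ratio of the main probe set was 3.53.

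Of 8 osteoclast genes, 4 were at least 2-fold higher in the ES colony pair and 1 at least 2-fold lower, with a median of 1.24, and in the plain colony pair none were higher and 2 lower, with a median of -0.36. The ES colony pair ratio exceeded the plain colony pair ratio for 8 of 8, which held for 9941 of all 19747 genes. Acp5, the acid phosphatase that stains osteoclasts, was at 9.57 in the ES medium SACCs and 6.4 in their monolayer, but at 8.20 and 9.36 in SACCs and monolayer of the plain colony pair. Ctsk, the collagen-degrading protease cathepsin K, which fibroblasts also make, was at 11.04 and 7.81 in the ES colony pair and at 9.11 and 8.88 in the plain colony pair. Both genes were thus lowest in the monolayer of the ES colony pair. The fusion genes Ocstamp and Dcstamp had ES colony pair ratios of 2.82 and 1.55 and plain colony pair ratios of -0.43 and -0.93. Other members did not reach a 2-fold increase. Atp6v0d2, an osteoclast and macrophage proton pump subunit, had a ratio of -1.74, and Calcr, the calcitonin receptor, was below the median on all 4 arrays. Nfatc1, the regulator of the lineage, had a ratio of 0.92, but its 5 probe sets ranged between -0.92 and 0.92 in the ES colony pair. With the monolayer of the plain colony pair as the control, after quantile normalization over the 4 arrays, the list median was 0.37.

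Contractile and pericyte genes were higher in the ES medium SACCs as well. All 17 had a ratio above 0 in the ES colony pair, 9 of them at least 2-fold, with a median of 1.14, and in the plain colony pair 4 were at least 2-fold higher, with a median of 0.44. The muscle intermediate filament Des, also found in reticular fibroblasts of lymphoid organs, was at 11.3 in the ES medium SACCs and 7.09 in their monolayer, against 8.59 and 7.66 in SACCs and monolayer of the plain colony pair. Its other probe set had an ES colony pair ratio of 0.50. Smooth muscle gamma actin, Actg2, had a ratio of 2.53 in the ES colony pair and 0.69 in the plain colony pair, and the smooth muscle myosin Myh11 1.86 and 0.77, with -0.15 in the ES colony pair for its other probe set. Acta2, at 13.67 in SACCs and 13.49 in the monolayer, differed little, and Myocd, the master coactivator of smooth muscle genes, was below the array median on all 4 arrays. Taking the mean over the probe sets of each gene lowered the list median to 0.80.

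Some junction genes were higher as well. P-cadherin, Cdh3, was at 7.53 in the ES medium SACCs and 5.53 in the monolayer, a ratio of 2.00 against 0.36 in the plain colony pair. Its other probe set had an ES colony pair ratio of 0.64. VE-cadherin, Cdh5, was at 6.93 and 5.72, a ratio of 1.21 against 0.15, but its other probe set had an ES colony pair ratio of -0.27. Of 14 cadherin and junction genes 6 were at least 2-fold higher in the ES colony pair and 3 in the plain colony pair. Among 10 endothelial genes 2 were at least 2-fold higher in the ES colony pair, with a median of 0.67, and Pecam1 and Tie1 were below the array median on all 4 arrays.

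Genes of cell division had opposite signs in the 2 pairs. All 20 mitosis genes were higher in the ES medium SACCs than in their monolayer, 15 of them at least 2-fold (median 1.25). All 20 were lower in SACCs of the plain colony pair, 7 of them at least 2-fold (median -0.93). Opposite signs occurred in 31.4% of all genes. Promoters of mitotic genes are known for the CCAAT box and the cell cycle homology element TTTGAA; the stretch of Ccnb2 shown here holds the first and that of Cdc20 both. The bases before the start of each gene follow, on the strand of the gene in GRCm38.p6 of RefSeq, with these letters in capitals.

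Ccnb2, chr9:70421555-70421674, minus strand: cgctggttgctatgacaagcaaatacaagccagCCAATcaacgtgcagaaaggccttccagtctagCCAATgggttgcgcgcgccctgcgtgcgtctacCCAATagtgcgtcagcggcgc

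Cdc20, chr4:118437344-118437463, minus strand: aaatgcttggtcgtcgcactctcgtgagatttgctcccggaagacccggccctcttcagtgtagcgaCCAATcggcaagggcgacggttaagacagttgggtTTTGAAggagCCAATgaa

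Ccnb2 encodes cyclin B2, which drives entry into mitosis, and Cdc20 activates the complex that ends it. The 120 bases of Ccnb2 hold 3 CCAAT boxes, and those of Cdc20 hold 2 with TTTGAA between them. In windows of 300 bases (250 before and 50 after the start), read on both strands, CCAAT was found in 17 of the 18 mitosis genes that had an entry (94.4%) and in 41.1% of 27025 genes, and TTTGAA in 13 of 18 (72.2%) and in 20.2% of genes. In the 250 bases before the start, TTTGAA was found in 8 of 18 (44.4%), against 18.3% of genes. The 2 motifs can overlap by 1 base at most. A match of letters is no evidence of binding.

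Ccnb2 itself was at 7.69 in the ES medium SACCs and 6.07 in their monolayer, and at 7.05 and 7.98 in SACCs and monolayer of the plain colony pair. Kif20a, a kinesin of cell division with the highest ratio of the list, was at 6.94 and 4.63 in the ES colony pair and at 6.35 and 6.70 in the plain colony pair. In both genes the ES colony pair's monolayer was the low array. The same held over the list: as distances from the array median, the median level was 2.88 in the ES medium SACCs and 1.37 in their monolayer, and 2.40 and 2.88 in SACCs and monolayer of the plain colony pair. The monolayer of the ES colony pair was below that of the plain colony pair for 20 of 20 genes, which held for 57.8% of all genes, and the ES medium SACCs were above the plain SACCs for 19 of 20, which held for 49.4% of all genes. Set against the other monolayer, after quantile normalization over the 4 arrays, the list median was -0.28. The cause of the gap between the monolayers was not tested.

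Genes of DNA replication showed a smaller difference of the same kind. Of 17, 15 had a ratio above 0 in the ES colony pair, but 2 reached 2-fold, Cdc6 (1.48), which loads the replicative helicase, and Rrm2 (1.01), a subunit of ribonucleotide reductase. All 17 were lower in SACCs of the plain colony pair, 11 of them at least 2-fold. Pcna, the replication clamp, was at 10.06 in the ES medium SACCs and 10.33 in the monolayer, a ratio of -0.27, and at 10.17 and 12.21 in the plain colony pair. The list medians were 0.45 in the ES colony pair and -1.10 in the plain colony pair. Against the monolayer of the plain colony pair the ES value became -0.48. The proliferation marker Mki67 had ratios of 0.74 and -1.21.

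Cholesterol synthesis, whose genes answer to the sterol supply of the cell through SREBP2, was near its monolayer level in the ES colony pair. Of 18 genes 16 had a ratio above 0 and 3 reached 2-fold, among them Fdft1 (1.04), squalene synthase, and Cyp51 (1.03), the lanosterol demethylase. The list median was 0.28 in the ES colony pair and -0.64 in the plain colony pair, where 16 of 18 were lower in SACCs. The ES colony pair had the higher ratio for 18 of 18, which held for 9941 of all 19747 genes. Its monolayer was below that of the plain colony pair, over the array medians, for 16 of 18, which held for 57.8% of all genes. Against the monolayer of the plain colony pair the list median was -0.27. Fdft1 had other probe sets with ES colony pair ratios down to -0.41. Scd1, the stearoyl desaturase, was higher in SACCs of both pairs, with ratios of 2.07 and 2.79. Fkbp5, a cochaperone of the glucocorticoid receptor and one of its targets, was at 8.19 in the ES medium SACCs and 6.2 in their monolayer, while SACCs and monolayer of the plain colony pair were at 7.70 and 7.64. Its 3 probe sets ranged between -0.22 and 1.99 in the ES colony pair.

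**Figure D3:**
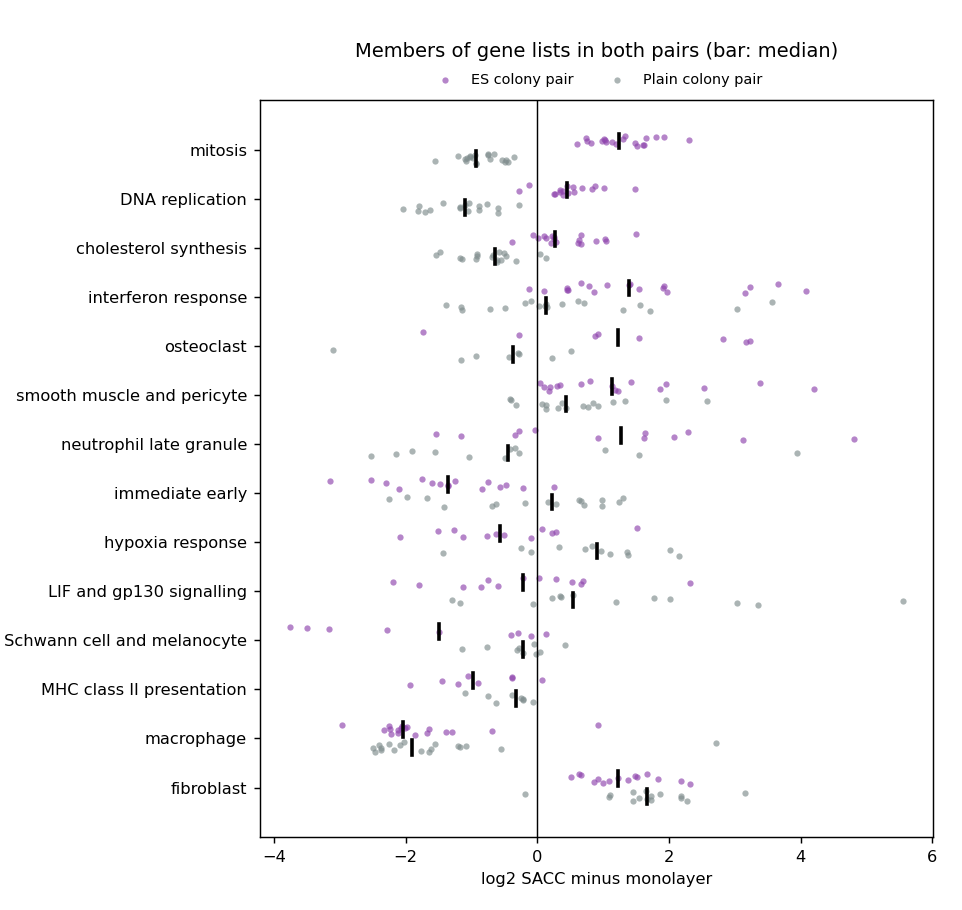
Members of 14 gene lists as points on the log2 ratio of SACCs over monolayer, in the ES colony pair (purple, upper row of each list) and the plain colony pair (grey, lower row); black bars are list medians. Mitosis genes lie on opposite sides of 0 in the 2 pairs, interferon response genes reach further right in the ES colony pair, and macrophage and fibroblast genes overlap.

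Interferon response genes were higher in the ES medium SACCs. Of 19, 18 had a ratio above 0 and 11 were at least 2-fold higher, with none at least 2-fold lower and a median of 1.39. In the plain colony pair 5 were at least 2-fold higher and 3 at least 2-fold lower, with a median of 0.14. The ES colony pair had the higher ratio for 19 of 19, which held for 9941 of all 19747 genes. Many of these genes are switched on through the interferon-stimulated response element, whose core, GAAA followed after any 2 bases by GAAA again, stands at 2 places before Ifit1. It is shown in capitals below and reads on the opposite strand.

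Ifit1, chr19:34640749-34640888, plus strand of GRCm38.p6: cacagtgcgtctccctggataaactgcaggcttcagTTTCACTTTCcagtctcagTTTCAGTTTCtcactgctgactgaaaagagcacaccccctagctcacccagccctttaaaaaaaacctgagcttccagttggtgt

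The core was found, on either strand of the 300-base window, in 9 of the 14 list members with an entry (64.3%) and in 3.99% of 27025 genes. Ifit1, which binds foreign RNA, was at 8.51 in the ES medium SACCs and 5.36 in their monolayer, and at 7.22 and 5.51 in SACCs and monolayer of the plain colony pair. Ifi44 (4.08), the GTPase gene Iigp1 (3.66) and the deubiquitinase Usp18 (3.24) had the highest ratios, and theirs in the plain colony pair were 3.04, 3.57 and 1.56. For these 4 genes SACCs were the higher array in both pairs. Others parted: the transcription factor Irf7 had ratios of 1.92 and 0.38 in the ES and the plain colony pair, Oasl2 1.91 and 0.12, and the antiviral enzyme Rsad2 0.46 and -1.39. Over the list the median distance from the array median was 2.65 in the ES medium SACCs and 0.74 in their monolayer, and 2.30 and 1.66 in SACCs and monolayer of the plain colony pair. Here too the monolayer of the ES colony pair was the low array. It was below that of the plain colony pair in 15 of 19 genes, which held for 57.8% of all genes. Against the monolayer of the plain colony pair the list median was 0.57.

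Among the genes lowest in the ES colony pair were those of pigment cells. Melanocytes occur in the spleens of pigmented C57BL mice. Pmel and Mlana encode melanosome proteins, Tyr, Tyrp1 and Dct the enzymes that make melanin, and in pigment cells MITF switches these genes on through promoter elements with the core CATGTG, the M-box. That core lies before the start of the 3 pigment genes with an entry and is in capitals below, with its reverse complement where it is on the other strand.

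Tyr, chr7:87493513-87493632, minus strand: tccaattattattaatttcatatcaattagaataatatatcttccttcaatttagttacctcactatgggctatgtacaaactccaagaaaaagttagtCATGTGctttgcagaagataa

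Tyrp1, chr4:80834093-80834212, plus strand: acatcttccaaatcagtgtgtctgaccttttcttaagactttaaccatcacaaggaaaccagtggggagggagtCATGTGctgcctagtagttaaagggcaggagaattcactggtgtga

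Dct, chr14:118052247-118052496, minus strand: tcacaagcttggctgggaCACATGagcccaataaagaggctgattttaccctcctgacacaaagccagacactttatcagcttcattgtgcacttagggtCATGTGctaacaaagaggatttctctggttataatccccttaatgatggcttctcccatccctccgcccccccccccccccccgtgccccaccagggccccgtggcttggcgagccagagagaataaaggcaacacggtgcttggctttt

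The coordinates are of GRCm38.p6. In windows of 300 bases the core, on either strand, was found in 15.9% of 27025 genes. Pmel was at 5.13 in the ES medium SACCs and 8.62 in their monolayer, a ratio of -3.49, and at 5.30 and 4.88 in SACCs and monolayer of the plain colony pair. Mlana was at 3.56 and 7.31 in the ES colony pair, and below the array median in the plain colony pair at 3.97 and 4.02. Dct was at 4.85 in the ES medium SACCs, against 8.02 in their monolayer, and at 3.62 and 4.38 in the plain colony pair. For each of the 3 the monolayer of the ES colony pair was the high array. Tyrp1 (-2.58) and Tyr (-2.28) had the same pattern. The 3 probe sets of Tyrp1 ranged between -5.10 and -2.58 and the 3 of Tyr between -2.28 and -0.38. With low values raised to the array median the ratio of Tyr was -0.92.

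The remaining genes of that lineage did not all follow. Mitf, which macrophages also express, had ratios of -1.49 in the ES colony pair and -1.14 in the plain colony pair. Sox10, the neural crest factor of pigment and Schwann cells, was at 6.08 in the ES medium SACCs and 6.48 in the monolayer. Of the 9 genes in this list 5 were at least 2-fold lower in the ES colony pair and 1 in the plain colony pair, with medians of -1.49 and -0.21. Against the monolayer of the plain colony pair the list median was -0.27, and the ratios of Pmel and Dct turned to 0.05 and 0.28. Ccn3, a secreted matricellular protein, shared the pattern, at 7.45 in the ES medium SACCs and 10.83 in their monolayer, and at 6.53 and 6.64 in the plain colony pair, and its ratio against that pair's monolayer was 0.62. It was named for its large difference between the pairs, not as a pigment gene.

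Immediate early genes, which respond within minutes to growth factors or stress, were lower in the ES medium SACCs. Of 16, 15 had a ratio below 0 and 10 were at least 2-fold lower, with a median of -1.35. In the plain colony pair 4 were at least 2-fold lower and 2 at least 2-fold higher, with a median of 0.23. Opposite signs in the 2 pairs occurred in 8 of the 16 genes, and in 31.4% of all genes. Egr1, a zinc finger factor, was at 11.44 in the ES medium SACCs and 12.79 in their monolayer, and at 12.16 and 10.91 in SACCs and monolayer of the plain colony pair. Nr4a1, an orphan nuclear receptor, was at 9.04 and 10.29 in the ES colony pair and at 11.19 and 9.89 in the plain colony pair. In both genes the order of SACCs and monolayer turned between the pairs. Egr3 and Ier2 did likewise, with ratios of -2.30 and -1.60 in the ES colony pair and 0.66 and 0.64 in the plain colony pair, though the other probe set of Egr3 had -0.09 in the ES colony pair. The AP-1 family genes Atf3 and Fos and the mRNA-destabilising Zfp36 were lower in SACCs of both pairs, with ES colony pair ratios of -3.15, -2.10 and -2.53 and plain colony pair ratios of -2.25, -1.41 and -1.67. Against the monolayer of the plain colony pair the list median was -0.71 and the ratio of Egr1 was 0.48.

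Several inflammatory mediators were lower in the ES medium SACCs too. The chemokine gene Ccl3 was at 7.15 in the ES medium SACCs and 10.39 in their monolayer, and at 8.52 and 8.97 in the plain colony pair. Cxcl2, which draws neutrophils, had ratios of -2.97 and -1.14, and Il1b, at 4.48 and 6.68 in the ES colony pair, -2.20 and 0.24. Not all chemokines were lower: the eosinophil chemokine Ccl11 was at 9.65 in the ES medium SACCs and 4.06 in their monolayer, a ratio of 5.59 against 3.63 in the plain colony pair. The CXC chemokine genes Cxcl3 and Cxcl5 were higher in SACCs of both pairs. Their ratios were 4.64 and 4.28 in the ES colony pair and 4.78 and 3.15 in the plain colony pair. Of 17 inflammatory cytokine genes 2 were at least 2-fold higher and 4 at least 2-fold lower in the ES colony pair, and 6 higher and 2 lower in the plain colony pair.

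Genes that cells raise under low oxygen were lower in the ES medium SACCs, by a median of -0.57 over 12 genes, with 4 at least 2-fold lower and 1 at least 2-fold higher. The median was 0.91 in the plain colony pair, with 5 higher and 1 lower. Adm, the vasodilator adrenomedullin, was at 6.91 in the ES medium SACCs and 9.0 in their monolayer, and at 7.56 and 6.18 in the plain colony pair. Bnip3, a receptor for the removal of mitochondria, was at 9.62 and 10.75, and at 10.93 and 9.82. Both turned their order between the pairs, and against the monolayer of the plain colony pair the ratio of Adm was 0.53. The highest ES colony pair ratio of the hypoxia list belonged to Car12 (1.51), a carbonic anhydrase. Vegfa, the vascular growth factor, had a ratio of -0.10 in the ES colony pair and 2.15 in the plain colony pair, where SACCs were at 10.23. Of 12 glycolysis genes none differed 2-fold in either pair; the median was -0.36 in the ES colony pair and 0.07 in the plain colony pair.

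Several genes of secreted or membrane-bound signals, some of them named for their gap between the pairs, had a lower ratio in the ES colony pair than in the plain colony pair. Lcn2, an iron-sequestering lipocalin, was at 7.31 in the ES medium SACCs and 8.46 in their monolayer, but at 12.49 and 8.55 in SACCs and monolayer of the plain colony pair. Bmp2, a bone morphogenetic protein, had ratios of -1.22 and 3.06, and Cx3cl1, the membrane-bound chemokine fractalkine, -1.58 and 1.86. The 4 probe sets of Cx3cl1 ranged between -1.65 and -0.20 in the ES colony pair. The ES value of Bmp2 turned to 1.31 against the monolayer of the plain colony pair. Among genes at least 2-fold lower in the ES colony pair, Lcn2 and Bmp2 had the widest gaps to their plain colony pair ratios. Lif, which keeps mouse ES cells from differentiating, was at 7.10 in the ES medium SACCs and 7.95 in the monolayer, and at 9.64 and 6.29 in the plain colony pair. Il6 was at 9.98 and 10.57, and at 11.8 and 8.77. Il11 was higher in SACCs of both pairs, with ratios of 2.32 and 5.55. Over 13 genes of LIF and gp130 signalling the ES colony pair had the lower ratio in 13, with medians of -0.21 in the ES colony pair and 0.55 in the plain colony pair. Over all 19747 genes it had the higher ratio for 9941. Read over the array medians, the ES colony pair's monolayer was above the other monolayer for 13 of 13, which held for 8171 of all genes. The ES medium SACCs were above the plain SACCs for 5 of 13, which held for 49.4% of all genes.

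**Figure D4:**
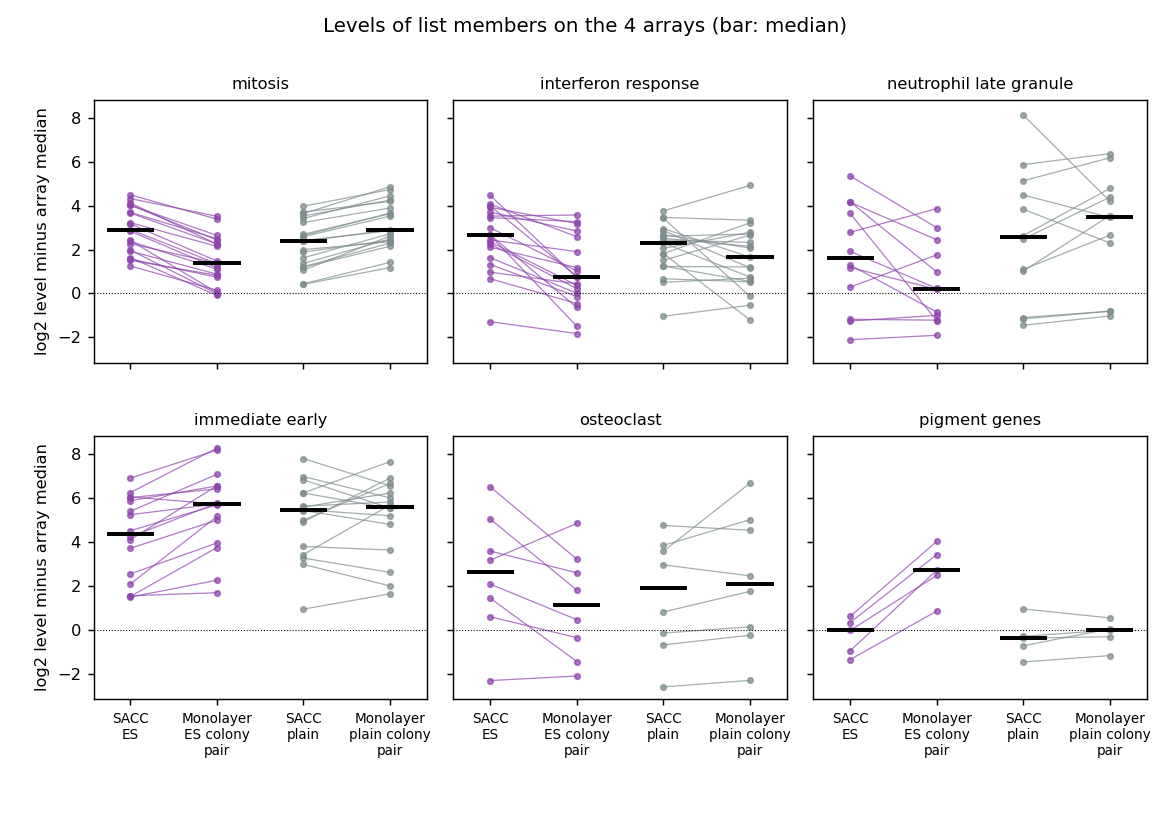
Levels of the members of 5 gene lists and of 5 pigment genes on the 4 arrays, as log2 distance from each array's median; lines join a gene's values within a pair and black bars are medians. In the mitosis, interferon response, neutrophil and osteoclast panels the ES colony pair's monolayer has the lowest median of the 4 arrays. In the pigment and immediate early panels it has the highest, in the latter by little (5.74 against 5.62 in the plain colony pair's monolayer).

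Late neutrophil granule genes had list medians of opposite sign in the 2 pairs. S100a9, a subunit of calprotectin, was at 8.17 in the ES medium SACCs and 3.35 in their monolayer, a ratio of 4.82, while SACCs and monolayer of the plain colony pair were at 9.49 and 10.53. S100a8, the other subunit, was at 8.70 and 5.57, and at 10.23 and 10.72. Ngp, a granule protein of neutrophil precursors, was at 5.82 and 3.74, and at 6.99 and 9.13. In all 3 the monolayer of the ES colony pair was the low array, and S100a9 and Ngp were below the array median there. The collagenase Mmp8 had ratios of 1.64 and -1.90, and the stefin gene Stfa2l1, at 4.94 and 2.34 in the ES colony pair, 2.60 and -2.64.

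Of 12 genes of the list 6 were at least 2-fold higher in the ES colony pair and 2 at least 2-fold lower, with a median of 1.27. In the plain colony pair 3 were higher and 5 lower, with a median of -0.45. The monolayer of the ES colony pair was below that of the plain colony pair for 12 of 12, which held for 57.8% of all genes. Its median distance from the array median was 0.21, against 1.61 in the ES medium SACCs and 2.56 and 3.51 in SACCs and monolayer of the plain colony pair. Opposite signs in the 2 pairs occurred in 6 of the 12 genes, and in 31.4% of all genes. Camp and Mmp9 were higher in SACCs of both pairs, with ratios of 1.62 and 2.29 in the ES colony pair and 1.54 and 1.03 in the plain colony pair. Lcn2, also in the list, had ratios of -1.15 and 3.94. Among surface receptors in the list, Csf3r, the receptor for granulocyte colony-stimulating factor, had ratios of -1.54 and -1.55. Cxcr2 and Cd177 were below the median on all 4 arrays. Against the monolayer of the plain colony pair the list median was -1.22, and against the mean of both monolayers -0.23. Primary granule genes of myeloid progenitors, such as Mpo at 3.30 and 3.64 in the ES colony pair and 6.32 and 4.73 in the plain colony pair, were below the median on both arrays of the ES colony pair in 5 of 6 cases. That held for 7088 of all 19747 genes.

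Genes of MHC class II presentation were lower in the ES medium SACCs. H2-Aa, a class II chain, was at 6.73 in the SACCs and 8.66 in their monolayer, and at 5.46 and 6.08 in the plain colony pair. Cd74, the invariant chain, had ratios of -1.44 and -0.21, and H2-Ab1 -1.20 and -0.07. The 3 probe sets of H2-Ab1 ranged between -1.20 and -0.14 in the ES colony pair. Of 8 genes 4 were at least 2-fold lower in the ES colony pair and 1 in the plain colony pair, with medians of -0.98 and -0.32. Ciita, the master regulator of the class, was below the array median on all 4 arrays. The list median was -0.48 against the monolayer of the plain colony pair, and H2-Aa and Cd74 turned to 0.43 and 0.095.

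The 15 lowest ratios of the ES colony pair also held genes that were lower in SACCs of both pairs. Among them were Gpr34, a lysophospholipid receptor of macrophages (-4.59 and -2.42), Cd83, a marker of activated dendritic cells (-3.66 and -2.42), the macrophage gene Fcrls (-3.56 and -1.28) and the blood transcription factor gene Tal1 (-3.55 and -1.55). Pgap6 (-3.98 and -2.45), the sodium-proton exchanger genes Slc9a7 (-3.37 and -2.31) and Slc9a9 (-3.31 and -1.93) and the tetraspanin gene Tspan13 (-3.28 and -2.76) stood there too. In each of these 8 genes, read from 1 probe set, the ES colony pair had the larger decrease. The 4 probe sets of Pgap6 ranged between -3.98 and -0.11 in the ES colony pair, and the 4 of Slc9a9 between -3.31 and -0.48.

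Genes of pluripotent cells showed little difference in the ES colony pair. Pou5f1 (Oct4) was at 2.36 in the ES medium SACCs and 3.00 in their monolayer, below the array median on all 4 arrays, and 10 of 18 pluripotency genes were below it on both arrays of the ES colony pair, as were 7088 of all 19747 genes. Klf4, a reprogramming factor that many tissues also express, was far above it, at 8.43 and 8.86 in the ES colony pair and at 8.14 and 8.43 in the plain colony pair. The list median was -0.01 in the ES colony pair and -0.08 in the plain colony pair, with 1 gene at least 2-fold higher in each, Tbx3 (1.38 and 2.17), which many tissues express and whose 5 probe sets began at -0.07 in the ES colony pair. Of all 67 lists, 11 had no member that differed 2-fold in the ES colony pair, among them those of B cells, T cells, natural killer cells, red cells, ribosomal proteins and the unfolded protein response, with medians between -0.36 and 0.61. Matrix proteases had 9 of 14 members at least 2-fold higher in the ES colony pair and 7 in the plain colony pair, led by the gelatinase Mmp2 (3.84 and 2.70) and the stromelysin Mmp3 (3.83 and 3.06).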

How the data were processed

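Gene expression was measured on 4 Affymetrix arrays with 45037 probe sets in common. The deposited values are log2 expression levels per probe set; per the labels' protocols, total RNA was purified with a column kit and labelled as biotinylated cRNA, and per the submitters' processing notes the Transcriptome Analysis Console was used. How probe sets were summarised and normalized, and which array model was used, is not given in the sources used here. Each pair was deposited as a table of its own, and sorted values differed by at most 0.14 in the ES colony pair and 0.2 in the plain colony pair, against 0.28 between tables. The ratios of each pair therefore stay within its table. Only the alternatives that use the monolayer of the plain colony pair as a control cross the tables, after quantile normalization over the 4 arrays. The values were identical in a table deposited for the whole series. There is no read depth on an array; the precision is limited by having 4 of them.

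Ratios were computed as log2 SACC minus monolayer with pandas 2.3.3 and numpy 2.4.6, without a filter, a pseudocount or a test, and counted at 2-fold. Symbols came from the tables, updated through a RefSeq gene table (GRCm38.p6): 33553 probe sets had a current symbol, 1114 a synonym, 1442 kept the name of the file, 1236 had several symbols, 64 a date and 7628 none. For each gene the probe set brightest on average across all 4 arrays was used; 9058 genes had several, and in 4112 these had both signs in the ES colony pair. The 67 gene lists, with 786 of 811 entries measured, and the genes named were chosen with earlier results of these data known. The rule for named genes took, among genes above an array median in the ES colony pair, the 15 highest and 15 lowest ratios and the 20 largest differences to the plain colony pair in each direction, and up to 6 members of each list by ratio, with 9 genes in any case. Calcr, Acta2, Myocd, Cdc20, Pcna, Oasl2, Rsad2, Vegfa, Il6, Csf3r, Cxcr2, Cd177, Ciita, Xist, Ddx3y, Eif2s3y, Kdm5d, Ace and Pecam1 were named outside it, after their values were seen. Some members of the lists are counted but not reported here by name. Promoter sequences and motif counts are from RefSeq (GRCm38.p6). The counting was tested on simulated data. Alternatives are in the closing section.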

Additional observations from a re-analysis of the deposited data

Results flagged for a closer look

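Several ratios went one way in the ES colony pair and the opposite way in the plain colony pair, for single genes by at least 2-fold on each side. The difference itself was not tested, since each pair has 1 array a side. Values are the ES colony pair's log2 ratio (or list median) minus that of the plain colony pair.

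Among list medians the difference was 2.18 for mitosis (1.25 and -0.93), 1.55 for DNA replication (0.45 and -1.10), 1.72 for late neutrophil granules (1.27 and -0.45), 1.595 for osteoclast genes (1.24 and -0.36) and -1.47 for the hypoxia response (-0.57 and 0.91).

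Among genes higher in SACCs of the ES colony pair and lower in those of the plain colony pair, S100a9 differed by 5.86, Stfa2l1 by 5.24, Acp5 by 4.33, Ngp by 4.22, Mmp8 by 3.54, Tnfrsf21 by 3.52, Rrm2 by 2.80 and Cdc6 by 2.65. Among genes lower in SACCs of the ES colony pair and higher in those of the plain colony pair the difference was -5.09 for Lcn2, -4.28 for Bmp2, -3.47 for Adm, -3.44 for Cx3cl1, -2.60 for Egr1, -2.55 for Nr4a1 and -2.24 for Bnip3.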

How the results depend on the processing

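No paired analysis was possible because 1 array stood on each side, and for the same reason no replicate could be left out. Centring each array on its median, or quantile normalizing the ES colony pair, moved none of 67 list medians and 120 named genes by more than the spread between probe sets of a gene (median SD 0.289). Camp, Mmp9, Cxcl3 and Cxcl5 were not among these 120. Results moved most when the monolayer of the plain colony pair took the place of the labelled control, which crosses tables and was done after quantile normalization over the 4 arrays. At least 2-fold higher and lower probe sets then numbered 3496 and 3160, against 2240 and 1614. List medians turned to -0.28 for mitosis, -1.22 for late neutrophil granules, -0.48 for DNA replication and -0.27 for cholesterol synthesis. They moved to -2.37 for macrophage, 1.89 for fibroblast, -0.27 for Schwann cell and melanocyte, 0.37 for osteoclast, 0.57 for interferon response, -0.48 for MHC class II, -0.71 for immediate early and -0.21 for hypoxia response genes. Of 120 named genes 23 changed sign, and 15 of these had differed at least 2-fold: Ccnb2 to -0.45, Cdc6 to -0.12, Pmel to 0.05, Dct to 0.28, Ccn3 to 0.62, Egr1 to 0.48, Adm to 0.53, Bmp2 to 1.31, S100a8 to -2.10, S100a9 to -2.46, Ngp to -3.46, Mmp8 to -0.16, Stfa2l1 to -2.36, H2-Aa to 0.43 and Cd74 to 0.095. With the mean of both monolayers the medians were -0.23 for late neutrophil granules, 0.48 for mitosis, 0 for DNA replication, 0.97 for interferon response, 0.94 for osteoclast, 1.51 for fibroblast and -1.20 for Schwann cell and melanocyte genes, and Ngp was at -0.67. Why these values moved was not tested.

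Leaving out genes below the array median on both arrays gave medians of 1.64 for late neutrophil granule, -1.89 for Schwann cell and melanocyte and 1.55 for osteoclast genes. Raising low values to the array median gave 0.80 for smooth muscle and pericyte and -0.92 for Schwann cell and melanocyte genes. The mean and the median over the probe sets of a gene each gave 0.80 for smooth muscle and pericyte genes, and the median -1.07 for Schwann cell and melanocyte genes. Depth does not apply to arrays; levels below an array median limit the folds of 326 of the 1286 genes at least 2-fold higher in the ES colony pair.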
